A study of Mus musculus with 24 samples.

Results

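The 10 genes described here carry the names Pparg, Cd36, Cidea, Cidec, Cideb, Pnpla2, Cfd, Adipoq, Fabp4 and Car3 in the array files. They join genes of lipid uptake and lipid droplets with genes best known from adipocytes, and the question was whether both kinds moved together from array to array in liver. The arrays hold 15 probes for these 10 genes. All 15 passed the filter on dim signal, so all 10 genes were among the 18952 genes tested.

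The livers came from C57Bl/6J mice of 2 genotypes. Mop3fxfx mice carry a floxed Mop3 gene (today Arntl, also called Bmal1, a transcription factor of the circadian clock) and are called floxed here. Mop3fxfxCreAlb mice carry the same floxed gene and Cre recombinase under the albumin promoter, which is active in hepatocytes, and are called Cre here. No group had albumin-Cre without the floxed gene. Mice of 10 and of 20 weeks, fed ad libitum in 12 h light and 12 h dark, were killed at 6 times of day, 4 h apart, where ZT0 is lights on and ZT20 the last. Each genotype, age and time gave 1 array, 24 in all and 6 for each genotype and age. Each array held RNA pooled from at least 3 mice against 1 reference, itself pooled from the 10-week mice of either genotype. The times of 1 group are therefore not repeats of each other, and every SD below also contains the time of day.

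Lipid droplets store triglyceride behind a coat of proteins. The CIDE proteins (Cidea, Cideb, Cidec) let droplets grow by passing lipid from one to another. Pnpla2 is the lipase that starts the breakdown of stored triglyceride. In a lean liver Cideb is the usual CIDE protein, while Cidea and Cidec are best known from brown and white fat and appear in fatty liver. Pparg is the nuclear receptor that drives fat storage in adipocytes, and Cd36 takes up fatty acids. Cfd (adipsin) and Adipoq (adiponectin) are secreted by adipocytes, Fabp4 binds fatty acids in adipocytes, macrophages and endothelium, and Car3 is a carbonic anhydrase abundant in fat, muscle and liver.

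Promoters are shown for 4 genes whose level differed between the genotypes, since the gene deleted here encodes a factor that binds the E-box CACGTG, and since many nuclear receptors, PPARγ with its partner among them, bind sites built on AGGTCA. The RefSeq table held 10 start sites for 7 of the 10 genes (Cidea, Fabp4 and Car3 are named only). Each line gives the 250 bases before a start, 5′ to 3′ on the strand of the gene, on GRCm38.p6. Capitals mark AGGTCA or its reverse complement TGACCT.
Cidec start A, chr6:113434765-113435014, minus strand: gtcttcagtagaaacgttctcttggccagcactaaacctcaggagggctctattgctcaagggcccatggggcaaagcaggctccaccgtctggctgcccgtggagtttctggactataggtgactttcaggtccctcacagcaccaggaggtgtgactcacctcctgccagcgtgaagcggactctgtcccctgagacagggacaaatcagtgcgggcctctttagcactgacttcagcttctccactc
Cidec start B, chr6:113435761-113436010, minus strand: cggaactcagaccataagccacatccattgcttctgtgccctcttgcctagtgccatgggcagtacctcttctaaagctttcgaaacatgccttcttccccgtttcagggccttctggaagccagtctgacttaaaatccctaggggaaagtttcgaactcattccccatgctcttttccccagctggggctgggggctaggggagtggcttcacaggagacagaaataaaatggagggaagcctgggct
Cfd, chr10:79890603-79890852, plus strand: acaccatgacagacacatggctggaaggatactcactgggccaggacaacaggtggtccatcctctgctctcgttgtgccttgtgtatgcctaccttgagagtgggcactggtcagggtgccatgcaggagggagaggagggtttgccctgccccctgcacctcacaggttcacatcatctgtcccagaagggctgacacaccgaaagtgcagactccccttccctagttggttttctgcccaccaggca
Cd36, chr5:17835897-17836146, minus strand: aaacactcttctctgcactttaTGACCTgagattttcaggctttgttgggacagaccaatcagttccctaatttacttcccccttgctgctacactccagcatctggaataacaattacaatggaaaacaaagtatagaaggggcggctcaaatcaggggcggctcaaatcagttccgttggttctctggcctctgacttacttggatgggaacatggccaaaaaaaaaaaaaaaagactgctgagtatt
Pparg start A, chr6:115360894-115361143, plus strand: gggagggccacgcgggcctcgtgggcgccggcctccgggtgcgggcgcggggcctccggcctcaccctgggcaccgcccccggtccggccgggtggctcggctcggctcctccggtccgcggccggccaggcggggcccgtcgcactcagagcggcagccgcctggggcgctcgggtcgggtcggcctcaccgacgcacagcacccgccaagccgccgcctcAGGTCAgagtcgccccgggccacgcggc
Pparg start B, chr6:115362099-115362348, plus strand: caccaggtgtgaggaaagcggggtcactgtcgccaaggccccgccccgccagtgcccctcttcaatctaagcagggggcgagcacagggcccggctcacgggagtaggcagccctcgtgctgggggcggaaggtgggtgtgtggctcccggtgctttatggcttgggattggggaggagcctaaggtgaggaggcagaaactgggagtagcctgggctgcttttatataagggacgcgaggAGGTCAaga
CACGTG (which reads the same on both strands) occurred in none of the 10 windows, against 6.02% of the 32851 windows searched. AGGTCA or TGACCT occurred in 3 of the 10, namely in 1 Cd36 window (228 bases before the start) and in 2 Pparg windows (28 and 9 bases before), against 14% of all windows. A further Pparg window (chr6:115421816-115422065, plus strand), not printed above, held neither string. A match is a string of letters and not a shown site, and other distances from the start were not searched.

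All values are log2 ratios of sample over reference after background correction and normalization within each array. The labels put the sample in Cy3 and the reference in Cy5, but on the 6 slides with several arrays it was Cy5 that varied more, for 87.9 to 95.5% of probes. The ratio was therefore read as Cy5 (sample) over Cy3 (reference), against the labels. Turning it would turn the signs of log ratios and of their differences throughout, leave their sizes, their p-values and the correlations between genes as they are, and make the values of Cy5 alone those of the reference. Cidea showed the same contrast between the channels, as the plot of channel intensities shows. Its Cy5 intensity ran from 63.8 to 17300 over the 24 arrays, and its Cy3 intensity from 66.2 to 432. Arntl had an amplitude (mean to peak) of 1.69 in floxed and 0.22 in Cre livers, sizes that do not depend on which channel is the sample. Its peak in floxed livers stood at ZT21.8 on the reading used here. Turning the ratio would move this and every other peak to the opposite time of day. Differences over both ages come from 1 limma fit of all genes on the 24 arrays (genotype with its own daily cosine curve, plus age). Changes with age and differences between ages come from that fit with a term for age by genotype, and differences at 1 age from the 12 arrays of that age. A gene passed when its Benjamini-Hochberg adjusted p over all 18952 genes was under 0.05. Hepatocyte markers (Alb, Ttr, Apoa1, Tat, Cps1) were well above background on all arrays and none of the 5 passed the limma test for a genotype difference (0 at an unadjusted p under 0.05). For a difference between ages 1 of the 5 passed (10.6% of all genes did). In floxed livers 1 rose with age and 1 fell (22.8 and 15.2% of all genes). How far these bright probes were saturated is not given here. A lower level in such bulk RNA cannot be told apart from fewer cells of the type that carries the gene.

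**Figure D1:**
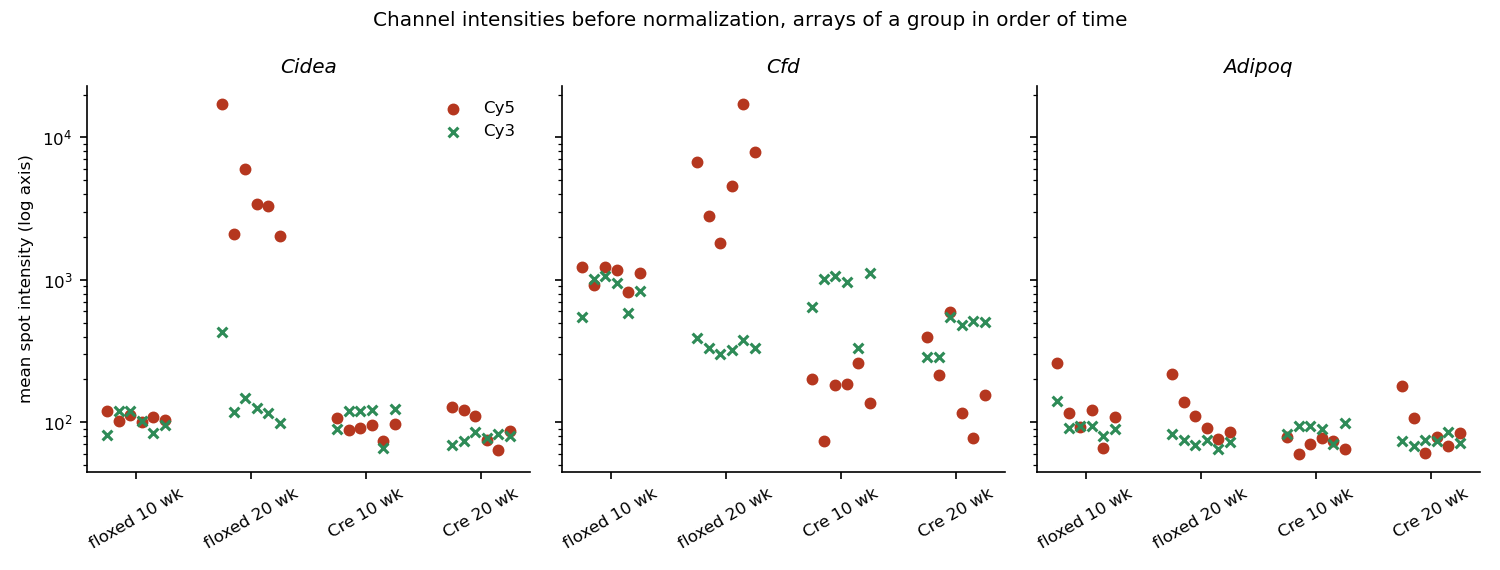
Mean spot intensity before normalization (log axis) of Cidea, Cfd and Adipoq on each of the 24 arrays, with Cy5 as filled circles and Cy3 as crosses, by group and in order of time within a group. Cidea in Cy5 stood at 2030 to 17300 on the 6 floxed arrays of 20 weeks and between 63.8 and 128 on the other 18 arrays.

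Averaged over the day and both ages, 6 of the 10 genes were lower in Cre than in floxed livers (Pparg, Cd36, Cidea, Cidec, Cfd and Car3) and 1 was higher (Fabp4). With slide or scan date as a block 3 were lower (Pparg, Cidec and Cfd) and Fabp4 no longer passed. Among all genes 12.1% were lower and 12% higher, an even split (50.2% of calls lower) that became 71.7% lower of 667 calls when arrays were only centred on their median. Cideb, Pnpla2 and Adipoq did not pass. The 10 genes were chosen with earlier results of these data known, so their share of calls is a description only. The difference was largest for Cfd, Cidec and Cidea. It differed between the ages for Cidea and Cidec, and for Cidec no longer with slide or scan date as a block.

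Cidea was dim in 3 of the 4 groups and high in the fourth. In floxed livers of 20 weeks its log2 ratio was 4.30 at ZT0, 2.93 at ZT4, 3.55 at ZT8, 3.23 at ZT12, 3.39 at ZT16 and 2.84 at ZT20. The other 18 arrays lay between -0.33 and 0.41. The groups did not overlap, and no floxed array of 10 weeks came above 0.15. Cidea rose by 3.32 ± 0.18 (SE, log2, 6 arrays against 6) from 10 to 20 weeks in floxed livers (limma adjusted p = 2.6e-09), the largest rise among the 18952 genes. In Cre livers the same difference was 0.13 ± 0.18 (adjusted p = 0.71). The genotype difference at 20 weeks was -3.40 ± 0.25 (adjusted p = 0.00026), which is 10.6-fold on this scale, and at 10 weeks -0.21 ± 0.08 (adjusted p = 0.22). The difference between these differences was -3.19 ± 0.26, with the smallest adjusted p of all genes (2.4e-06). In Cy5 alone after quantile normalization this value was -4.60, and without background correction it was -3.11. The ZT0 array of floxed 20-week livers had the highest median Cy5 intensity of all, and without both 20-week ZT0 arrays the value was -3.00.

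Cidec was also highest in floxed livers of 20 weeks. Floxed arrays of 20 weeks read 3.00, 1.85, 2.19, 2.38, 2.83 and 1.62 from ZT0 to ZT20, and floxed arrays of 10 weeks -0.46, 0.11, 0.20, 0.98, 0.68 and -0.10. Cre arrays ran from -1.67 to -0.64 at 10 weeks and from -1.18 to -0.19 at 20 weeks. All 6 floxed 20-week arrays lay above the other 18, and Cre was the lower of the 2 arrays at every age and time. The difference over both ages was -2.26 ± 0.26 (limma adjusted p = 4.3e-06), 4.78-fold. It was -1.42 ± 0.18 at 10 weeks (adjusted p = 0.0049) and -3.09 ± 0.26 at 20 weeks (adjusted p = 0.00033), and these differed by -1.67 ± 0.36 (adjusted p = 0.013).

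Cideb did not pass over both ages. Its log2 ratio ran from -0.03 to 0.95 in floxed and from -0.23 to 1.09 in Cre livers of 10 weeks, which overlap almost fully. At 20 weeks it ran from -0.08 to 0.94 in floxed livers and from -0.58 to -0.16 in Cre livers, which do not overlap. Over both ages the difference was -0.41 ± 0.17 (adjusted p = 0.097), although in the 12 arrays of 20 weeks alone it was -0.72 ± 0.16 (limma adjusted p = 0.0098). The difference between the ages was -0.63 ± 0.32 (adjusted p = 0.22). The 4 arrays of 1 slide, 2 of each genotype, held the 4 highest Cideb values of 10 weeks (0.62 to 1.09, the others at most 0.31), and with slide as a block the overall difference was -0.37 (adjusted p = 0.27, within 0.006 to 0.30 over 38 other settings). The overall difference passed when the Cre 10-week ZT8 array of that slide (-0.51, adjusted p = 0.018) or the floxed 10-week ZT16 array (-0.48, adjusted p = 0.044) was left out.

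**Figure D2:**
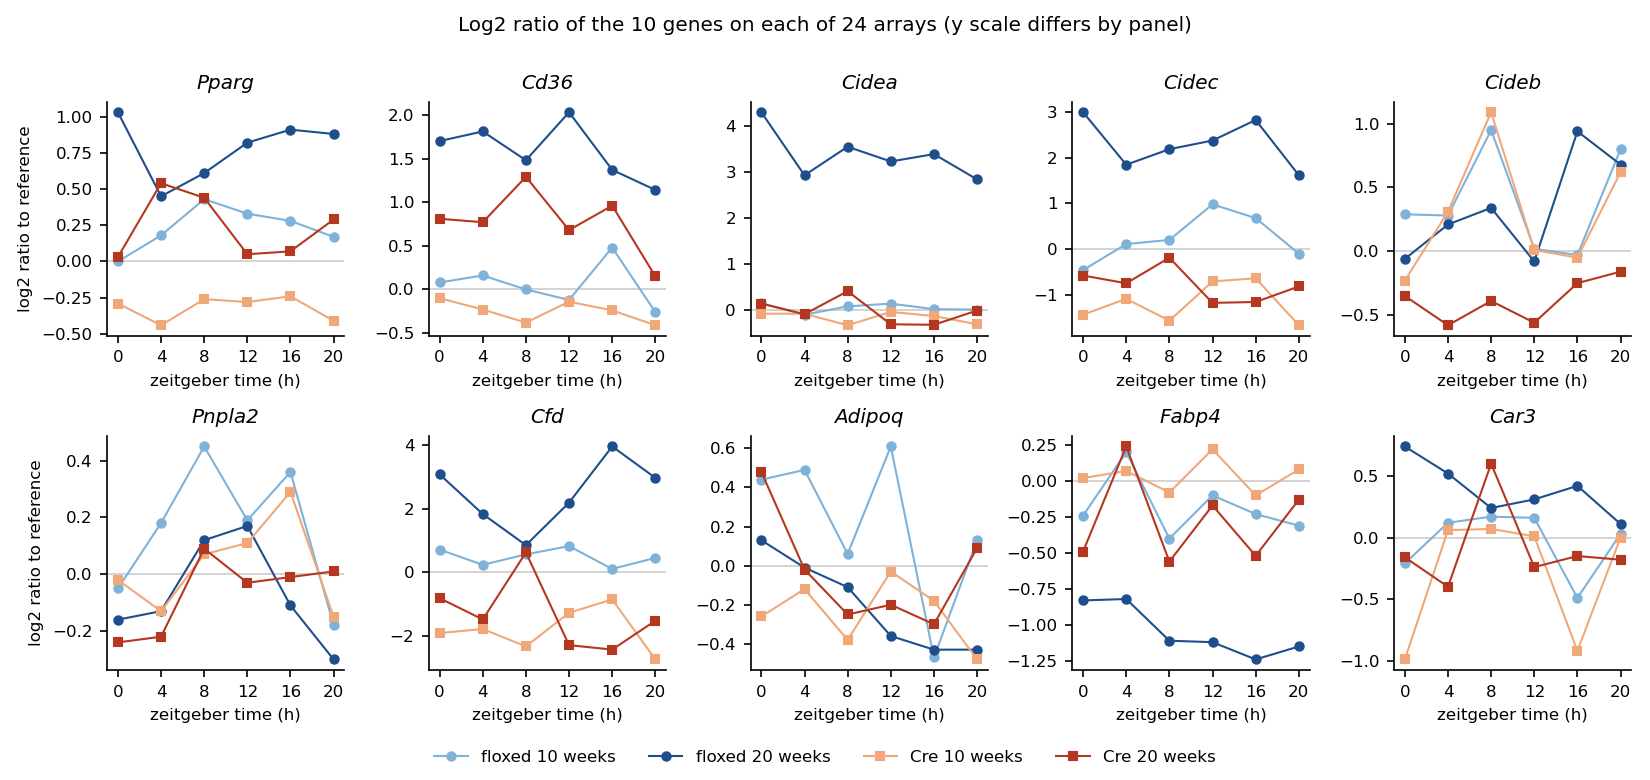
Log2 ratio to the reference of the 10 genes against zeitgeber time (h), 1 point per array, with 1 line per genotype and age (24 arrays). In floxed livers of 20 weeks (dark blue) Cidea, Cidec and Cfd lay above every other array, and Fabp4 (its brightest probe) lay below every other array.

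Cfd had the lowest genotype difference of all 18952 genes, -3.05 ± 0.36 (adjusted p = 6.6e-06), an 8.29-fold lower level in Cre livers. Its floxed values were 0.72, 0.24, 0.57, 0.83, 0.11 and 0.46 at 10 weeks, and 3.09, 1.84, 0.86, 2.20, 3.97 and 2.98 at 20 weeks, from ZT0 to ZT20. Cre values were -2.74 to -0.85 at 10 weeks and -2.43 to 0.63 at 20 weeks. The value of 0.63, at ZT8, was the only Cre value above 0, and on that same array Cidea (0.41) and Cidec (-0.19) were also at their highest in Cre livers. Cre was the lower array in all 12 pairs of 1 age and time. The difference was -2.30 ± 0.28 at 10 weeks (limma adjusted p = 0.0047) and -3.81 ± 0.43 at 20 weeks (adjusted p = 0.00085), and the difference between these, -1.51 ± 0.65, did not pass (adjusted p = 0.13). Without the Cre 20-week ZT8 array it was -1.91 and passed (adjusted p = 0.048).

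Pparg and Cd36 had smaller genotype differences and rose with age in both genotypes. Pparg ran from 0.00 to 0.43 in floxed and from -0.44 to -0.24 in Cre livers of 10 weeks, and from 0.45 to 1.03 and 0.03 to 0.54 at 20 weeks. The genotypes did not overlap at 10 weeks and overlapped slightly at 20 weeks. The difference was -0.55 at each age (SE 0.06 and 0.11) and -0.55 ± 0.07 over both (limma adjusted p = 1.6e-05). From 10 to 20 weeks Pparg rose by 0.55 ± 0.10 in floxed livers (adjusted p = 0.00046) and by the same 0.55 ± 0.10 in Cre livers (adjusted p = 0.0019). Under median centring alone, which took the median of all genes from -0.03 to -0.57, the difference between ages was -0.92 for Pparg and stood -0.35 from that median. Cd36 ran from -0.26 to 0.48 in floxed and from -0.41 to -0.10 in Cre livers of 10 weeks, and from 1.14 to 2.03 and 0.15 to 1.29 at 20 weeks. It was lower in Cre by 0.56 on the log2 scale (difference -0.56 ± 0.12, adjusted p = 0.003), in all 12 pairs. It rose with age by 1.54 ± 0.16 in floxed (adjusted p = 6.5e-06) and by 1.03 ± 0.16 in Cre livers (adjusted p = 0.00051). The 2 Cd36 probes correlated with r = 0.97 over the 24 arrays.

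Pnpla2 was nearly level. Its values ran from -0.30 to 0.45 in floxed and from -0.24 to 0.29 in Cre livers, and the difference was -0.06 ± 0.05 (adjusted p = 0.41). The dimmer Pnpla2 probe gave -0.48 ± 0.16 (limma adjusted p = 0.037 over all probes), and the 2 probes correlated with r = 0.37 only, so for this gene the probes disagree.

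Adipoq, Fabp4 and Car3 are the other genes of the 10 known from adipocytes. Adipoq was dim, with 65.7 to 260 intensity units in Cy5 in floxed livers of 10 weeks and 76.9 to 219 at 20 weeks. Its Cy5 signal was well above background on 9 of 12 floxed and 6 of 12 Cre arrays. Log2 ratios ran from -0.47 to 0.61 at 10 weeks and from -0.43 to 0.13 at 20 weeks in floxed livers, and from -0.48 to -0.03 and -0.30 to 0.48 in Cre livers. The genotype difference over both ages was -0.14 ± 0.12 (adjusted p = 0.42). It was -0.45 ± 0.16 at 10 weeks and 0.17 ± 0.09 at 20 weeks (limma adjusted p = 0.20 at each). These differed by 0.62 ± 0.20, which did not pass (adjusted p = 0.054) but passed in 9 of 38 other settings. Adipoq fell with age in floxed livers by 0.41 on the log2 scale (-0.41 ± 0.14, adjusted p = 0.03). Fabp4, by contrast with the droplet genes, was lowest in floxed livers of 20 weeks. There it ran from -1.24 to -0.82, below all 18 other arrays, whose lowest value was -0.56. It was higher in Cre by 0.50 ± 0.11 (adjusted p = 0.0021) over both ages, with 0.22 ± 0.11 at 10 weeks (adjusted p = 0.38) and 0.77 ± 0.14 at 20 weeks (adjusted p = 0.0045). It fell with age in floxed livers (-0.86 ± 0.12, adjusted p = 5.9e-05), and the difference between the ages was 0.56 ± 0.17 (adjusted p = 0.045), but -0.37 under median centring alone, which is 0.20 above the median of all genes there. That call was lost in 18 of the 24 fits that each left out 1 array. The second Fabp4 probe correlated with the first (r = 0.92) and gave a genotype difference of 0.27 ± 0.08. Its difference between the ages was 0.15 ± 0.16 (limma adjusted p = 0.59 over all probes). Its floxed 20-week values (-0.87 to -0.48) overlapped those of Cre livers of 20 weeks (-0.69 to 0.13). The call between ages and the separation from all other arrays therefore belong to the brightest probe only. The third probe, near background, gave a genotype difference of -0.06 ± 0.11 (adjusted p = 0.76).

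Car3 was saturated in Cy5 on 11 of 12 floxed and 6 of 12 Cre arrays, so no size is given for its difference. The fit called it lower in Cre (adjusted p = 0.046), and the call was lost in 17 of the 24 fits that each left out 1 array. The second Car3 probe, which was not saturated, gave -0.38 ± 0.34 (limma adjusted p = 0.45), ran from -2.58 to 1.58 within floxed livers, and correlated with the first at r = 0.56.

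**Figure D3:**
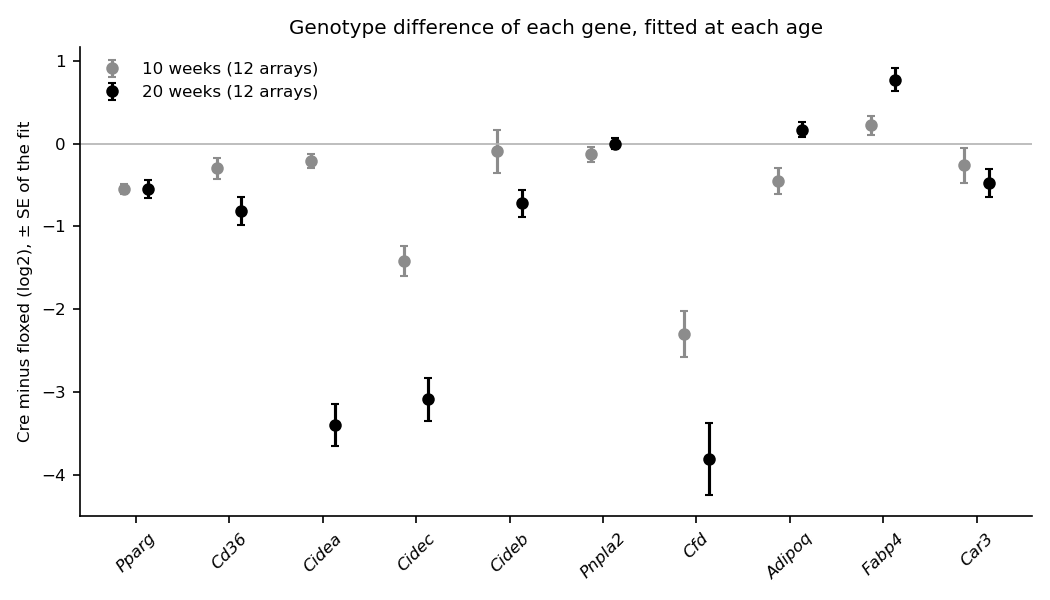
Genotype difference (Cre minus floxed, log2 ratio, points, with the SE of the fit as bars) of the 10 genes, fitted in the 12 arrays of 10 weeks (grey) and the 12 of 20 weeks (black). Cidea moved from -0.21 to -3.40, Cidec from -1.42 to -3.09 and Fabp4 from 0.22 to 0.77 (a change that turned under median centring), while Pparg stood at -0.55 in both. The Car3 probe was saturated on many arrays.

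Set side by side, 3 of the 10 genes were lower in Cre livers at 10 weeks (Pparg, Cidec, Cfd), where 1.52% of all genes were. At 20 weeks 6 were lower (Pparg, Cd36, Cidea, Cidec, Cideb, Cfd), against 17.1% of all genes, and 1 was higher (Fabp4), against 13.5%. The test of the difference between ages called 3 of the 10 (Cidea, Cidec, Fabp4), against 10.6% of all genes. In floxed livers 5 rose from 10 to 20 weeks (Cidea, Cidec, Cfd, Cd36, Pparg), against 22.8%, and 3 fell (Fabp4, Adipoq, Pnpla2, the last by -0.23 ± 0.07, adjusted p = 0.02), against 15.2%. In Cre livers 2 rose (Cd36, Pparg), against 5.09%. These comparisons share arrays and are not independent of each other. Since the 10 genes were chosen with earlier results of these data known, the shares are no test of the genes as a set. The floxed 20-week arrays lay above all 18 others for 3 of the 10 genes, as they did for 1.78% of all genes, and below them for 1 gene, as they did for 1.01%.

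Ages were on different slides throughout, so age, slide and scan time cannot be told apart. At 20 weeks 1 slide held 4 floxed arrays only (ZT0 to ZT12). Another, scanned on another date, held 4 Cre arrays only (ZT8 to ZT20). On those arrays genotype and slide cannot be told apart, and they enter every 20-week difference given here. The 20-week slide with both genotypes held floxed ZT16 and ZT20 and Cre ZT0 and ZT4. At 10 weeks the Cre ZT16 array was alone on its slide and its scan date. The genotype difference can be read within the 4 slides that held both genotypes. For Cidec it was -1.67, -1.45 and -0.97 on the 3 slides of 10 weeks and -2.89 on the slide of 20 weeks. For Cfd it was -3.04, -2.06, -2.62 and -4.62, and for Cidea -0.37, -0.08, -0.24 and -3.09. Fabp4 was higher in Cre on all 4 slides (0.36, 0.10, 0.26 and 1.07). Cd36 gave -0.26, -0.20, -0.18 and -0.47. Adipoq was lower in Cre on the slides of 10 weeks (-0.53, -0.62 and -0.70), as Cfd was, and higher on that of 20 weeks (0.66). These are differences of 1 to 2 arrays a side and carry no test. With slide as a block, Cidea kept its difference between ages (-2.85, adjusted p = 0.041), but Cidec (-1.11, adjusted p = 0.29) and Fabp4 (0.85, adjusted p = 0.14) no longer passed, and neither did the overall genotype differences of Cidea (-0.82, adjusted p = 0.20), Cd36 (-0.30, adjusted p = 0.22), Fabp4 (0.41, adjusted p = 0.10) and Car3 (adjusted p = 0.16). Over all 38 other settings the adjusted p of the difference between ages ran from 2e-08 to 0.041 for Cidea, from 0.0014 to 0.46 for Cidec and from 0.011 to 0.46 for Fabp4. That of the genotype difference ran up to 0.016 for Pparg, 0.00051 for Cidec and 0.00086 for Cfd, and from 0.00044 to 0.20 for Cidea, 0.0016 to 0.22 for Cd36, 0.00036 to 0.40 for Fabp4 and 0.011 to 0.64 for Car3.

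None of the 10 genes had a daily rhythm that passed, in floxed livers (1.57% of all genes passed, 297 genes) or in Cre livers (0%, 0 genes by limma, with 1708 at an unadjusted p under 0.05). None passed for a difference in rhythm, where 0.0317% of all genes (6) did. At an unadjusted p under 0.05 the limma counts among the 10 genes were 1 in floxed, 1 in Cre and 0 for the difference, the gene being Pnpla2 both times. Pnpla2 had an amplitude of 0.23 ± 0.05 and a peak at ZT9.9 in floxed livers (adjusted p = 0.062), which passed in 7 of 38 other settings. That of Cfd was 0.60 ± 0.36 (adjusted p = 0.71) and that of Pparg 0.11 ± 0.07 (adjusted p = 0.77). At single times, the smallest adjusted p among the 10 genes was 0.13, for Cidec at ZT16 (-2.65 ± 0.71).

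Whether droplet genes and adipocyte genes moved together was asked for 5 droplet or uptake genes (Cideb, Cidec, Pnpla2, Cd36, Pparg) against 3 adipocyte genes (Adipoq, Cfd, Fabp4) within each genotype, 30 correlations in all. Cidea was not among these 5, and its correlations are only described further below. In 19 of them the ages formed separate clusters for 1 or both genes, so no value over 12 arrays is given. The 11 others were 2 in floxed and 9 in Cre livers, so over 12 arrays the question was asked mainly in Cre livers. Of these 11, 1 passed. In Cre livers Cidec and Cfd correlated over 12 arrays with Pearson r = 0.91 (permutation p = 3e-05, adjusted over the 30 p = 0.0009) and Spearman rho = 0.95 (permutation p = 5e-05, adjusted p = 0.0015). Without the 2 arrays farthest from the median of Cfd, r was 0.86. Within the 6 Cre arrays of 1 age r was 0.96 at 10 weeks (exact permutation p = 0.0014) and 0.99 at 20 weeks (exact p = 0.0042). Over the 60 correlations computed within age groups neither passed after adjustment (adjusted p = 0.083 and 0.12), and no other did. In floxed livers the same 2 genes gave r = -0.05 at 10 weeks (exact permutation p = 0.92) and 0.45 at 20 weeks (exact permutation p = 0.38). Both genes were dim in Cre livers of 10 weeks, with Cy5 intensities of 197 to 269 for Cidec and 74.2 to 261 for Cfd. Cfd was well above background in Cy5 on 5 of these 6 arrays. Cy3 intensities there ran from 248 to 873 for Cidec and from 335 to 1120 for Cfd. The same 2 arrays of 1 slide held the lowest values of both genes (-1.67 and -1.57 for Cidec, -2.74 and -2.33 for Cfd). The highest values of both (-0.64 for Cidec, -0.85 for Cfd) came from the ZT16 array. It was the only array of its slide and had the lowest Cy3 intensities of the 6. Slide and level can therefore not be told apart at either end of this line.

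**Figure D4:**
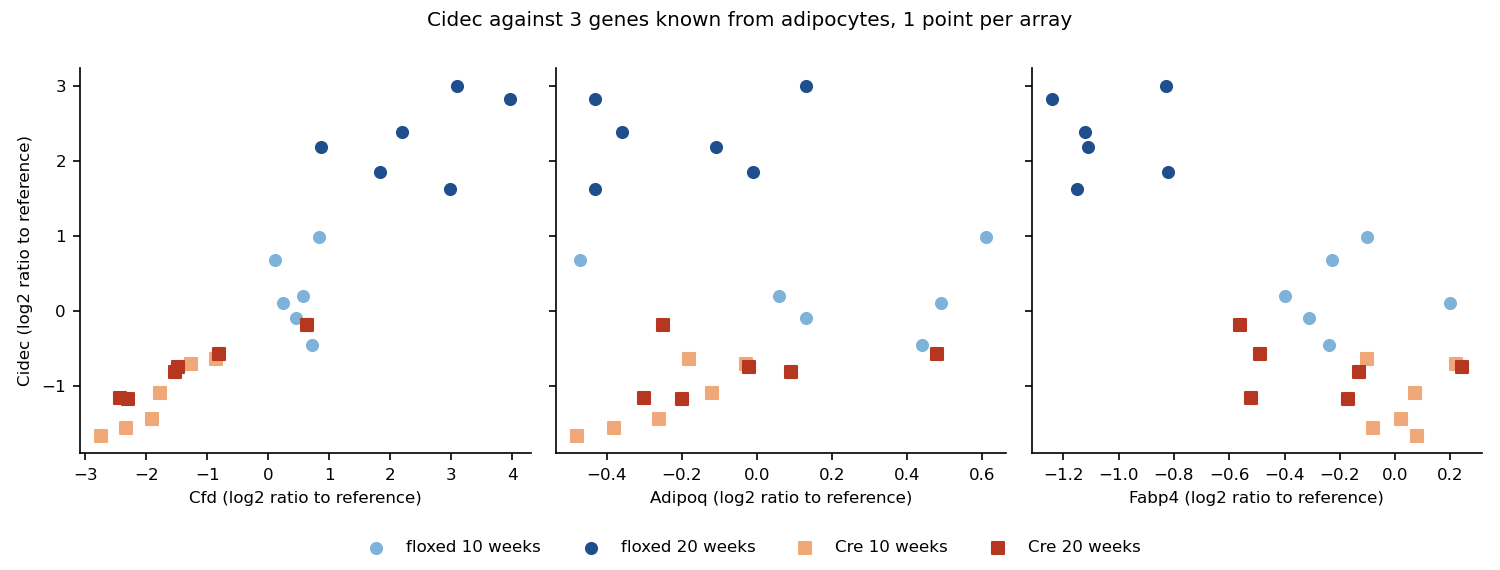
Log2 ratio of Cidec (y axis) against those of Cfd, Adipoq and Fabp4 (x axes), 1 point per array, coloured by genotype and age. In Cre livers (squares) Cidec and Cfd lay along a line (r = 0.91 over 12 arrays), whereas the floxed arrays of 20 weeks were high in Cidec at Adipoq values from -0.43 to 0.13.

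Adipoq with Cidec gave r = 0.58 over the 12 Cre arrays (permutation p = 0.045, adjusted p = 0.13), or 0.44 without the 2 arrays farthest from the median of Adipoq. Within the 6 Cre arrays of 1 age r was 0.86 at 10 weeks (exact permutation p = 0.036, adjusted p = 0.72) and 0.25 at 20 weeks (exact permutation p = 0.62). Within floxed livers its r with Cidec was -0.15 at 10 weeks and 0.24 at 20 weeks (exact permutation p = 0.75 and 0.61, 6 arrays each). Fabp4 and Cidec gave r = -0.36 over the 12 Cre arrays (permutation p = 0.25, adjusted p = 0.38). Cfd and Adipoq themselves gave r = 0.67 and -0.37 in floxed livers of 10 and 20 weeks, and 0.82 and 0.17 in Cre livers, each over 6 arrays and given as a description. In the same order, Cidea with Cfd gave r = 0.81 and 0.13 in floxed and 0.72 and 0.99 in Cre livers. With Adipoq the values were 0.18, 0.60, 0.90 and 0.29, and with Fabp4 -0.58, 0.34, 0.42 and -0.34. Cidea was dim outside floxed livers of 20 weeks, and these values were not tested.

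Of 12 further adipocyte markers (Plin1, Plin4, Lep, Retn, Adig, Lipe, Aqp7, Adrb3, Ucp1, Trarg1, Sncg, Acvr1c) 4 passed the filter on dim signal. Lep (leptin), Ucp1 (the uncoupling protein of brown fat) and Acvr1c were not well above background in Cy5 on any of the 24 arrays, the 6 floxed 20-week arrays with high Cidea included. Adig and Trarg1 reached it on none of those 6 arrays, Adrb3 on 1, Retn on 2, Sncg on 4 and Plin1, Plin4 and Lipe on all 6. Aqp7, a glycerol channel, reached it on 5 of those 6 and on 6 of all 24 arrays with one probe, and on 0 and 4 with the other. Plin1, the droplet coat protein of adipocytes, reached it on 16 of the 24 and Sncg on 11. The mean log2 ratio of the 4 that passed ran from -0.06 to 0.36 in floxed livers of 10 weeks, from 0.03 to 0.73 in floxed livers of 20 weeks, from -0.37 to 0.17 in Cre livers of 10 weeks and from -0.24 to 0.13 in Cre livers of 20 weeks. Floxed and Cre ranges overlapped at both ages. In pairs of 1 age and time the Cre array had the lower mean in 6 of 6 at 10 weeks and 5 of 6 at 20 weeks. The mean of the 4 thus moved in the direction of Cfd and Cidec in 11 of 12 pairs, while the genotype differences of Plin1 and Sncg were near 0. The highest value came from the floxed 20-week ZT0 array. Only Lipe, the hormone-sensitive lipase, passed for a genotype difference (-0.37 ± 0.08, adjusted p = 0.0015). Plin4 gave -0.73 ± 0.26 (adjusted p = 0.05 after rounding, not past the threshold), Plin1 -0.04 ± 0.04 and Sncg 0.00 ± 0.03. With the mean of these 4 markers as a covariate, the genotype difference was -2.81 for Cfd, -1.89 for Cidec and -1.60 for Cidea, all 3 still passing, and -0.35 for Cd36, which no longer passed (adjusted p = 0.089). Car3 did not pass either (adjusted p = 0.13), whereas Cideb, at -0.79, did (adjusted p = 0.006). Pancreas markers, which can come with liver at dissection, stood at 2.97 on 1 array, Cre 20 weeks ZT4, and at most 0.63 elsewhere. The Cre 20-week values of Cidea, Cidec and Cfd on that array (-0.09, -0.75 and -1.48) lay within the range of their group. On the same array Pparg (0.54) was the highest of its group and the only Cre value of 20 weeks to overlap floxed livers, Fabp4 (0.24) was the highest and Cideb (-0.58) the lowest of all 24 arrays, and Car3 (-0.40) was the lowest of its group. Without that array the genotype difference was -0.58 for Pparg and 0.43 for Fabp4, both still passing, and -0.36 for Cideb, which did not.

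Other lipid droplet and triglyceride genes of liver were read from a list of 20, which was chosen with earlier results of these data known. Of these 7 were lower in Cre and 1 higher, with a median of -0.25, against 12.1 and 12% and a median of 0 over all genes. The 4 with the smallest p were Fitm1 (-1.33 ± 0.09, adjusted p = 4.9e-09) and Fitm2 (-0.49 ± 0.09, adjusted p = 0.0011), which help droplets form at the endoplasmic reticulum, the monoglyceride lipase Mgll (-0.73 ± 0.09, adjusted p = 1e-05) and Mogat1 (-0.48 ± 0.11, adjusted p = 0.0051), an enzyme of triglyceride synthesis. The single gene that was higher was Abhd5 (0.37 ± 0.11, adjusted p = 0.017), the activator of Pnpla2. Plin2, the main droplet coat protein of hepatocytes, gave -0.21 ± 0.11 (adjusted p = 0.18). In floxed livers 6 of the 20 rose with age and 1 fell, with a median of 0.11, against 22.8 and 15.2% and a median of 0.04 over all genes.

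Of 13 regulators of fat storage genes, a list also chosen with earlier results known, 6 were lower in Cre and none higher. At an unadjusted p under 0.05 (limma) 0 were higher. The shares over all genes were 12.1 and 12%, and the median of the 13 was -0.35. The 4 with the smallest p were the clock repressors Nr1d2 (-1.59 ± 0.20, adjusted p = 1.6e-05) and Nr1d1 (-0.93 ± 0.18, adjusted p = 0.00097), the carbohydrate sensor Mlxipl (-0.62 ± 0.10, adjusted p = 0.00025), and Ppara (-0.80 ± 0.15, adjusted p = 0.00062), the nuclear receptor of fatty acid oxidation. Of the 20 droplet genes 1 passed for a difference between ages, Hsd17b13, a hepatocyte droplet protein (0.49 ± 0.14, adjusted p = 0.035), named after its value was seen, against 10.6% of all genes.

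**Figure D5:**
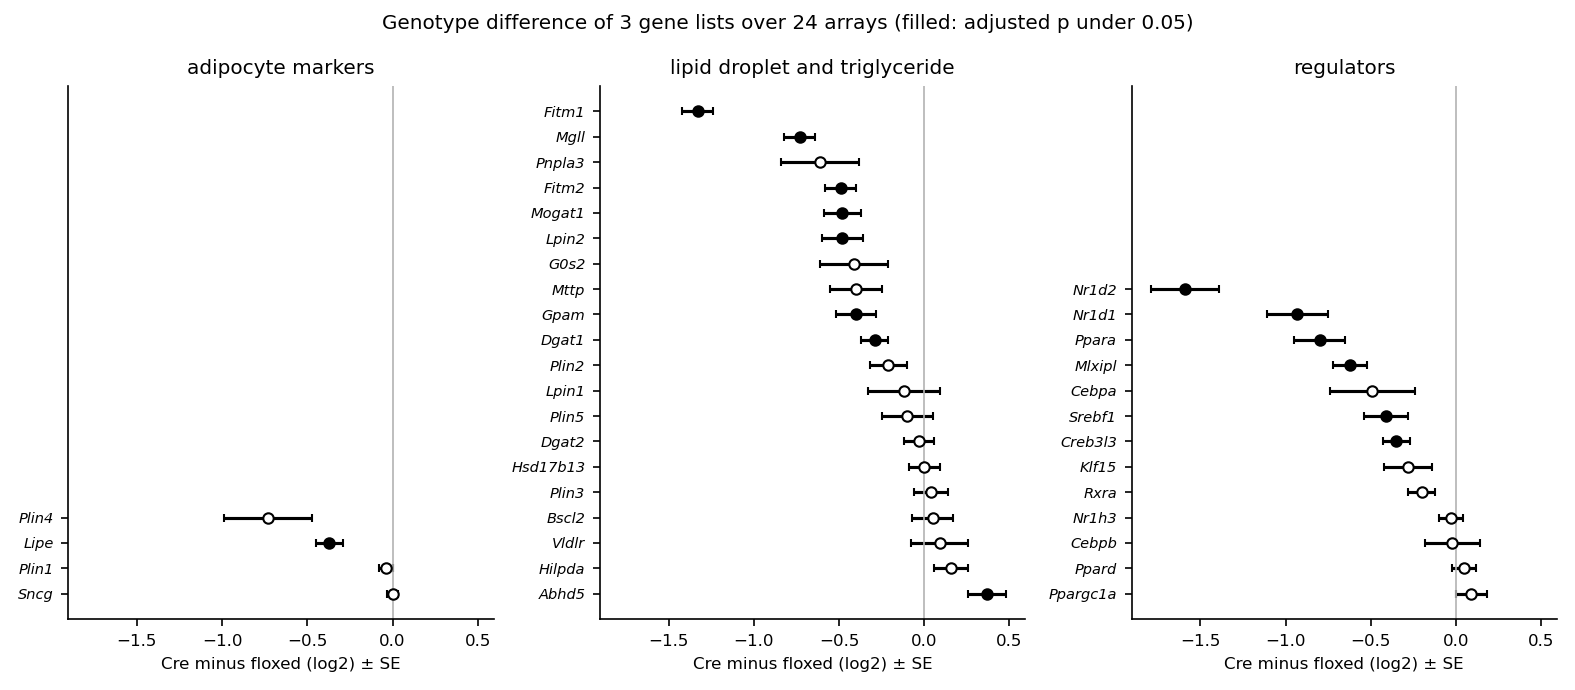
Genotype difference (Cre minus floxed, log2, points, with the SE as bars) of 4 adipocyte markers, 20 droplet and triglyceride genes and 13 regulators over 24 arrays, with filled points for genes that passed. Fitm1 (-1.33) and Nr1d2 (-1.59) lay farthest to the left, and Plin1 and Sncg at about 0.

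The genes with the most similar pattern over the 24 arrays differed from member to member. They share slides and both group contrasts, so r describes the arrays only. For Cidea they were Slc25a10 (r = 0.94), a mitochondrial dicarboxylate carrier, Atxn10 (0.93) and Fam126a (0.92). For Cfd they were the predicted transcript NAP025923-1 (0.99), Clstn3 (0.93) and Aldh3a2 (0.93), a fatty aldehyde dehydrogenase, and for Cidec 3 transcripts that have no current symbol in the gene table (NAP102495-1, 2610036A22Rik and NAP028872-1, r = 0.96, 0.96 and 0.95). For Pparg they were Hsd17b10 (0.92), Rdh16 (0.91) and the acyl-CoA thioesterase Acot1 (0.89), and for Cd36 the cardiolipin synthase Crls1 (0.93), Sugct (0.93) and Ppp2ca (0.92). Cideb lay nearest to Olfr1061, Aspscr1 and Ppp2r1a (0.96 each), and Fabp4 to Armcx2 (0.95), Rasgrp3 and Zfp407 (0.93 each). Values were lower for Pnpla2 (Narf 0.83, Pdzrn3 and Ung 0.80 each), Car3 (Inmt 0.83, Serpinc1 0.82, Acad11 0.81) and Adipoq (NAP029405-1 0.79, Penk 0.74, NAP072213-1 0.72). No member of the 10 was among the nearest 3 of another.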

How the data were processed

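Liver RNA of 24 pools was hybridised to 2-colour Agilent arrays without dye swaps. The deposited scanner files hold mean and background intensity of 45018 spots per channel from Agilent Feature Extraction 9.1.3.1, per the file headers, with quality flags as other columns. The deposited value table holds the log10 ratio of the same files (largest difference 0). Intensities were corrected with normexp (offset 50), normalised within arrays by loess (1639 control spots at weight 0), and spots of a probe averaged; outlier spots were left out. Probes well above background in Cy3 on at least 4 of 24 arrays were kept (27823 of 41174), and the brightest probe stood for a gene. limma 3.58.1 under R 4.3.3 fitted genotype by (mean, cosine, sine of 24 h) plus age. Nothing says which pools share animals, so p-values measure the spread between these arrays. Between 56.7 and 70.3% of probes were well above background in Cy5; the number of arrays limits precision. Correlations used 100000 permutations, or all orders of 6 arrays. The fits were tested on simulated data. The 10 genes and the lists were chosen with earlier results of these data known. Named are the 10 genes, Arntl, the 4 called genes of each list with the smallest p, the adipocyte markers and the 3 nearest genes of each member. Alternatives changed background, scaling, filter, probe rule, blocks, weights and arrays.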

Additional observations from a re-analysis of the deposited data

Results flagged for a closer look

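Cidea differed between the ages in its genotype difference (-3.19 ± 0.26, limma adjusted p = 2.4e-06), as did Cidec (-1.67 ± 0.36, adjusted p = 0.013) and Fabp4, which went the other way (0.56 ± 0.17, adjusted p = 0.045). The age of a liver and its slide cannot be told apart. In 38 other settings Cidea passed in 38, Cidec in 36 and Fabp4 in 13. The second Fabp4 probe gave 0.15 ± 0.16 (limma adjusted p = 0.59 over all probes). Of 40 groups of 6 arrays (10 genes in 4 groups) 1 held an array far from the others: Car3 at ZT8 in Cre livers of 20 weeks read 0.60, when the others ran from -0.40 to -0.15. About 1 group in 20 is marked by chance alone. Car3 was saturated on many arrays. The same array gave the highest Cre values of Cidea, Cidec and Cfd, and its adipocyte marker mean was 0.06, within the -0.24 to 0.13 of its group.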

How the results depend on the processing

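Differences were refitted under 14 other settings (the rise with age in floxed livers under 11 of them, since a slide, scan date or pair block could not be fitted with age) and with each of 24 arrays left out. Applying these settings to differences between ages was chosen after seeing the data. The genotype differences of Pparg, Cidec and Cfd passed in all 38. Members lower in Cre numbered 3 with slide or scan date as a block (6 as reported, 5 to 7 with 1 array left out), and members higher numbered 0 under median centring, Cy5 alone, and slide or scan date as a block. All genes with a genotype difference numbered 4551, but 667 under median centring, 1846 with slide and 2046 with scan date as a block, and 7112 when arrays were weighted. One member, Pnpla2 (1 of 10), was rhythmic in floxed livers with slide as a block, slide as a random block, scan date as a block, weighted arrays or the adipocyte covariate, and 0 to 1 with 1 array left out. Members with a difference between ages numbered 3, but 9 under median centring, 1 with slide or scan date as a block and 5 with pairs of arrays of 1 age and time as a block. All genes with such a difference numbered 2018 (67.9% lower), but 1215 with the deposited log ratio, 8427 under median centring (89.9% lower), 122 in Cy5 alone (55.7% lower), 11 with slide as a block, 584 with slide as a random block, 1 with scan date as a block, 3740 with pairs as a block, 5239 without both 20-week ZT0 arrays, and 965 to 4333 with 1 array left out (the lowest without the floxed 10-week ZT12 array, the highest without the Cre 20-week ZT0 array). Members higher at 20 weeks in floxed livers numbered 5, and 8 under median centring. That setting moved the difference between ages from 0.00 to -0.92 for Pparg, 0.13 to -0.83 for Pnpla2 and 0.56 to -0.37 for Fabp4. Of these only Fabp4 had passed before. The median of all genes went from -0.03 to -0.57. Correlated pairs numbered 6 of 30 before pairs with separate ages were set aside, 3 in Cy5 alone, 1 after removing the fit, 1 after removing slide means, 0 of 60 with ages apart, and 6 to 9 with 1 array left out. The causes were not tested. No paired analysis by replicate number was possible because the labels carry none. Signal limits Adipoq and Cidea, which were dim, Cidec and Cfd, which were dim in Cre livers, and Car3, which was saturated.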
